A study of Mus musculus with 6 samples.

Results

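The genes described here encode the proteins of the mitochondrial ribosome, measured in bone marrow-derived macrophages of mice with an intact Cdh11 gene (CDH11+/+, wild type, WT) and of mice without it (CDH11-/-, knockout, KO). They were taken as the protein-coding genes of the deposited counts whose symbol starts with Mrpl or Mrps followed by a number. This gave 77 of the 42256 genes in the counts, 48 with large subunit symbols (Mrpl) and 29 with small subunit symbols (Mrps). Both genotypes were on a mixed 129S1/Sv x C57BL/6 background and came from adult male animals. Marrow cells were grown for 7 days in RPMI 1640 with 20% L929-conditioned medium, a source of the macrophage growth factor CSF1, and 10% FBS, and received no treatment. There were 3 WT and 3 KO libraries. The sample labels do not say that each library is a separate animal, and the design text of the series speaks of 3 WT and 4 KO animals, so the p-values rest on the spread of these libraries alone, which may be technical.

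Mitochondrial ribosomes sit in the mitochondrial matrix and translate the few messenger RNAs of the mitochondrial genome, which encode core subunits of the respiratory chain and of ATP synthase. Their 2 ribosomal RNAs are mitochondrial products, while every ribosomal protein is encoded in the nucleus, made in the cytosol and imported. The large subunit forms peptide bonds and the small subunit reads the messenger RNA. Part of the proteins descend from bacterial ribosomal proteins, and others were added in the mitochondrial lineage.

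Libraries held 27170943 to 37113689 counts. Values are CPM, counts relative to the library total after TMM scaling, given as mean ± SD with n = 3 per genotype. "Rose" and "fell" stand for genes called in KO against WT by edgeR (quasi-likelihood test over 12862 genes, Benjamini-Hochberg adjusted p under 0.05). A call is said to need a library where it was not made once that library was left out. The deleted gene itself was near the limit of detection, with 6, 11 and 6 counts in WT 1 to 3 and 6, 4 and 5 counts in KO 1 to 3, so its transcript does not check the genotype labels. The 9 macrophage markers examined were all detected and summed to 31403 to 34019 CPM in WT and 19958 to 25615 CPM in KO, with 3 of them falling and 1 rising. The difference in the sum was mostly that of Lyz2, lysozyme, which went from 23638 ± 1033 to 15915 ± 2603 CPM, a call that needed WT 1 and WT 2. Csf1r fell from 3723 ± 315 to 2287 ± 372 CPM and kept its call without any 1 library. The fall of Cd14 needed WT 1, WT 3, KO 1 and KO 3, and the rise of Cd68 needed WT 1, WT 2, KO 2 and KO 3. In bulk RNA, fewer cells of a type and less RNA per cell cannot be told apart.

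The start sites of these genes are shown first, because sequence elements there are a feature that the choice of members did not use. Promoter windows from RefSeq on GRCm38.p6, 250 bases before to 50 after a start site, were found for 68 of the 77 members, 74 windows in all. Mrpl2, Mrpl48 and Mrps16 have several windows, and the shares below count windows, not genes. The ETS core CCGGAAG, bound by GABP and related factors, was present on either strand in 33.8% of these windows, against 8.86% of all 32851 windows in the table and 18.1% of the 11764 windows of the protein-coding genes tested here. The letters GCGC, any base and TGCGC in a row, the core bound by NRF1, a regulator of nuclear genes for mitochondria, were in 17.6% of member windows, 4.60% of all windows and 10.3% of those of tested genes. The YY1 core AAGATGGCG was in 10.8%, 1.40% and 3.12%. The E-box CACGTG, to which MYC and MAX bind, was in 9.46% of member windows, 7.15% of all windows and 9.95% of those of tested genes. A CCAAT box (CCAAT) was in 39.2%, 37.4% and 38.1%, and a GC box (GGGCGG) in 52.7%, 35.7% and 62.3%. The ETS, NRF1 and YY1 letters thus had higher shares in the member windows than in either background, whereas the E-box, CCAAT and GC box letters had shares near or below those of tested genes. Matches on both strands were searched and may overlap, and a match describes letters in this window, not a bound site.

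The 6 windows below belong to the members with the largest rises that have a single window and hold an ETS, NRF1 or YY1 match in the bases shown, and the last 3 to the members with a log2 fold change below 0. Each runs 5′ to 3′ from 170 bases before the start site to 30 from it, with ETS, NRF1 and YY1 matches in capitals.
Mrpl21, chr19:3282872-3283071, plus strand: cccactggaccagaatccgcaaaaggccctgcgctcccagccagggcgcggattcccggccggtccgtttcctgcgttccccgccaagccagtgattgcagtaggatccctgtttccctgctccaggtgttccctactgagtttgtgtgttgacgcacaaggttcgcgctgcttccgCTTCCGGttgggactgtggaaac
Mrps22, chr9:98601650-98601849, minus strand: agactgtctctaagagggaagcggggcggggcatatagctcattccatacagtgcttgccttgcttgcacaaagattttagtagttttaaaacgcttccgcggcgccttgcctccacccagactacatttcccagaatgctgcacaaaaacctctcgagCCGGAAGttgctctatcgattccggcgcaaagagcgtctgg
Mrps27, chr13:99344616-99344815, plus strand: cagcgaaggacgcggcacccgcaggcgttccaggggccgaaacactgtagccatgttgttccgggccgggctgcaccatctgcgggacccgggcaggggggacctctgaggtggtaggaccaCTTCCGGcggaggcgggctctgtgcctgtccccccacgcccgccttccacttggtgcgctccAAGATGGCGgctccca
Mrpl53, chr6:83108938-83109137, plus strand: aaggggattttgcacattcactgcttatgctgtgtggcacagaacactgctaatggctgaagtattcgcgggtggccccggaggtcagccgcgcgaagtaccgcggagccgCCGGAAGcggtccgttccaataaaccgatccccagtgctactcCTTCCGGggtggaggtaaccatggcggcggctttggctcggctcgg
Mrpl12, chr11:120484467-120484666, plus strand: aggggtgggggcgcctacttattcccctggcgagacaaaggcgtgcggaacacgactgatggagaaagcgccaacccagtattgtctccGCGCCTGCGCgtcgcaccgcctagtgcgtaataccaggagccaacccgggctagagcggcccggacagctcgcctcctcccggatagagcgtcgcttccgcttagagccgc
Mrpl51, chr6:125192030-125192229, plus strand: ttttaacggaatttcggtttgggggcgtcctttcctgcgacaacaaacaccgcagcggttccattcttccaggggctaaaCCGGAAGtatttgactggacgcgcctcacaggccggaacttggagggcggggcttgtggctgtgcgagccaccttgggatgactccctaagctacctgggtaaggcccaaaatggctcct
Mrpl9, chr3:94443166-94443365, plus strand: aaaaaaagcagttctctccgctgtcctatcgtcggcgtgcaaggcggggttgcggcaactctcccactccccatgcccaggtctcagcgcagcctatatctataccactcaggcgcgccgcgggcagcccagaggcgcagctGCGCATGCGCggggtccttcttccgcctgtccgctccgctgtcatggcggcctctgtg
Mrps9, chr1:42851063-42851262, plus strand: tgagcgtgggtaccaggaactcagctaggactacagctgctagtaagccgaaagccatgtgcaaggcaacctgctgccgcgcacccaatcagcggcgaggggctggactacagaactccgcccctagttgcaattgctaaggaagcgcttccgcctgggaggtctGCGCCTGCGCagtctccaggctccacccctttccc
Mrpl24, chr3:87919374-87919573, plus strand: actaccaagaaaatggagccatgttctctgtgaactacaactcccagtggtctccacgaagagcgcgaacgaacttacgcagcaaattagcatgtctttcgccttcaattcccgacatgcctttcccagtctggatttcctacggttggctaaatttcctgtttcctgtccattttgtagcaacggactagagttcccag
All 6 rising members shown were chosen to hold a match, so its presence in them was fixed by that choice. The 3 members below 0 were shown whether or not they hold one, so these groups are not comparable. The ETS letters stand in 5 of the 6 rising members shown and the NRF1 letters in Mrpl12. Of the 3 members below 0, Mrpl9 and Mrps9 hold the NRF1 letters and Mrpl24 none of the 3 motifs. Over all members with a window, 17 of 25 with the ETS letters rose (median log2 fold change 0.30) and 22 of 43 without them (0.24). For NRF1 the numbers were 5 of 13 with the letters (median 0.16) and 34 of 55 without (0.29), and for YY1 6 of 8 with (0.34) and 33 of 60 without (0.26). Whether these shares differ was not tested.

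Both subunits were higher in KO macrophages. Of the 48 large subunit genes 26 rose, and of the 29 small subunit genes 19 rose. No member fell, and in edgeR, DESeq2 and limma-voom none was lower at an unadjusted p under 0.05 either; limma-voom with sample quality weights had 1 such member. Among all 12862 genes tested, 18.5% rose and 16.8% fell (2375 and 2157), 35.2% in either direction; with upper quartile scaling the split was 2933 and 1621. The log2 fold change was above 0 for 74 of 77 members, against 50.2% of all genes. The median was 0.28 for the large and 0.27 for the small subunit, against 0.00 over all genes, so that the medians of the subunits lay close together; the difference between the subunits was not tested. All 77 members passed the filter on low counts, at 137 to 2083 counts per library. The changes were small, with a median of 1.31-fold among the 45 members that rose (1.13- to 1.89-fold).

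**Figure D1:**
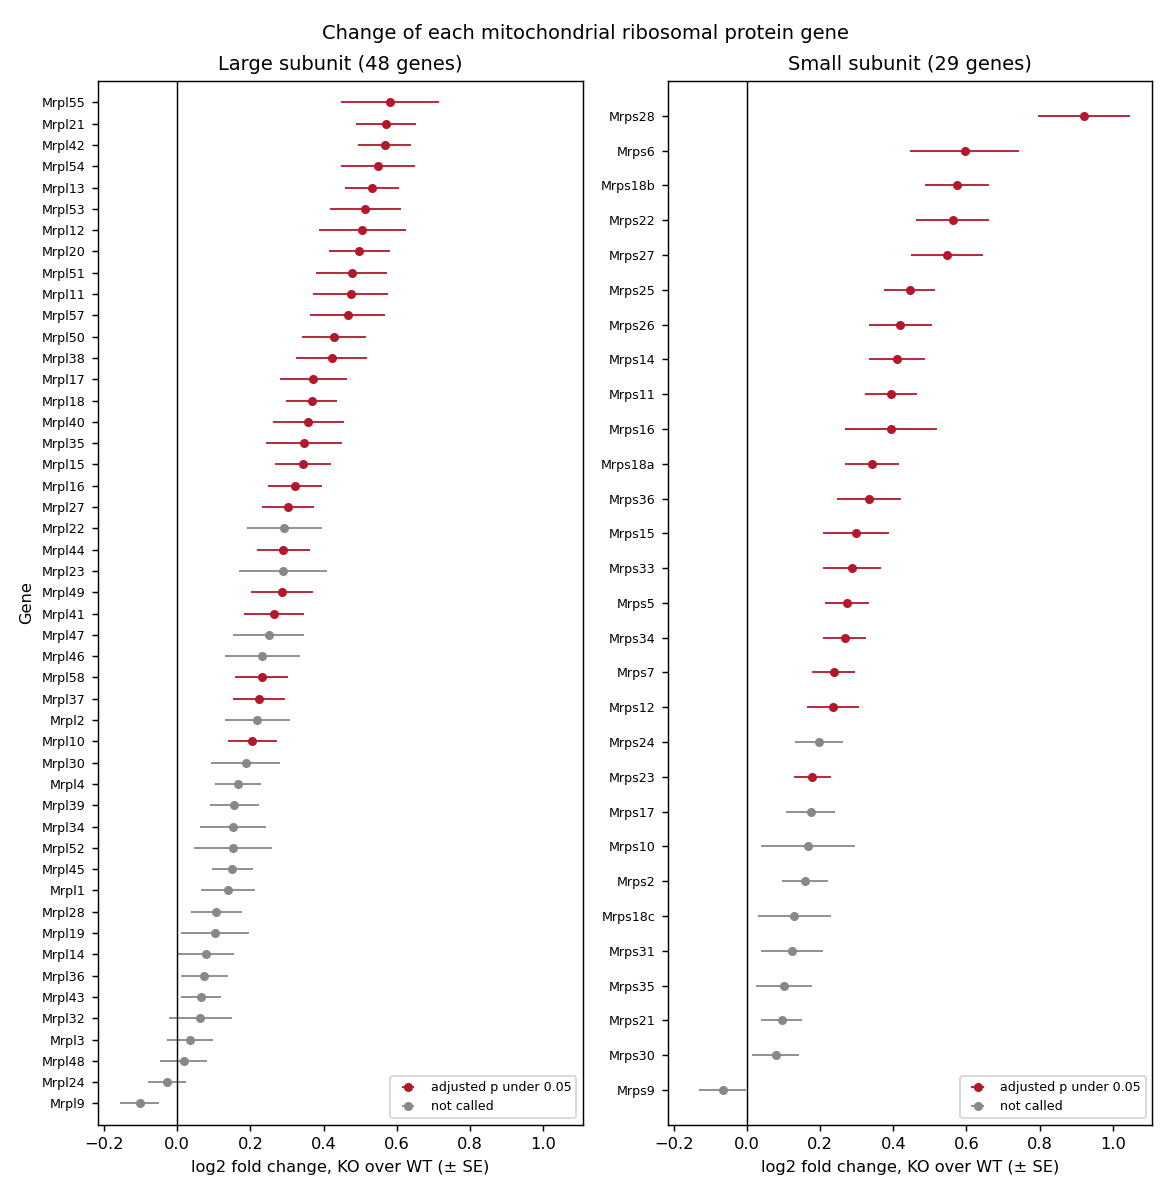
Log2 fold change of KO over WT with its standard error (x axis) for each of the 48 large subunit and 29 small subunit genes (y axis), from edgeR with 3 libraries per genotype. Red points are the 26 and 19 genes that rose and grey points were not called; Mrps28 lies furthest to the right at 0.92, and 3 members lie below 0.

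The KO libraries lay above all WT libraries for 57 of 77 members, 34 in the large and 23 in the small subunit, against 27% of all genes tested. They lay below for 1 member, Mrpl9, against 26.4%. Of the 32 members that were not called, 12 also had all KO libraries above all WT libraries. Within each genotype the libraries were ordered too. KO 2 was the highest of the 6 libraries for 52 members, KO 3 for 14 and KO 1 for 8, and WT 2 was the lowest for 38 members and WT 3 for 24. WT 1 was the highest library for 3 members and the lowest for 9.

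Summed over the large subunit, the genes took 1139.6, 1060.3 and 1082 CPM in WT 1 to 3 and 1252, 1374 and 1285 CPM in KO 1 to 3. The small subunit genes took 627, 599 and 614 CPM in WT 1 to 3 and 708, 774 and 739 CPM in KO 1 to 3. For both subunits the lowest KO library thus lay above the highest WT library. The ratio of large to small subunit CPM was 1.78 ± 0.0295 in WT and 1.76 ± 0.0190 in KO (SD, n = 3), with WT libraries at 1.82, 1.77 and 1.76 and KO libraries at 1.77, 1.78 and 1.74. These ranges overlap, and the difference between the ratios was within the spread of the libraries.

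**Figure D2:**
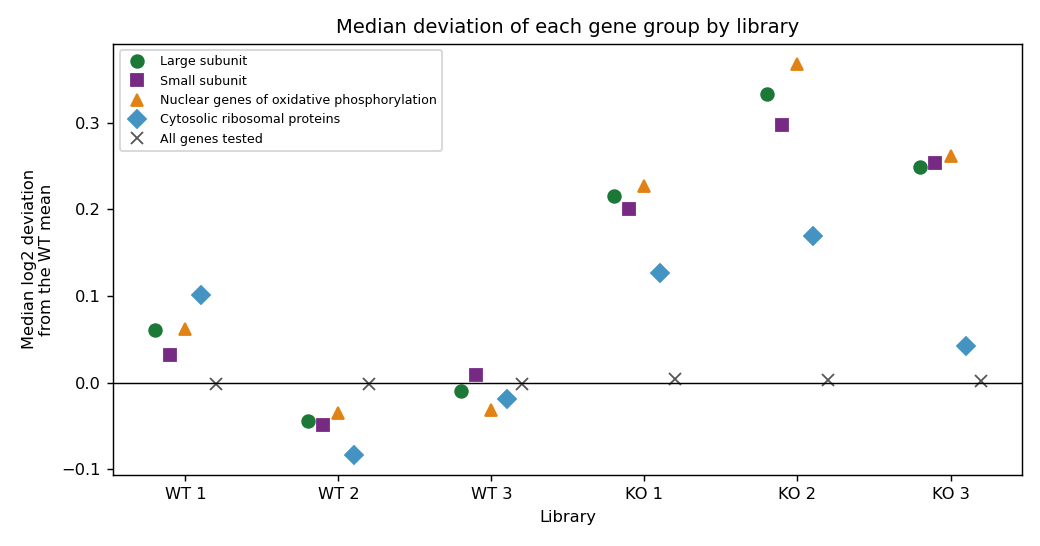
Median over each gene group of the log2 deviation from the WT mean (y axis), by library (x axis), for the large and small subunit genes, the nuclear genes of oxidative phosphorylation, the cytosolic ribosomal proteins and all genes tested. Large and small subunit medians lie at 0.20 to 0.33 in the KO libraries and at -0.05 to 0.06 in the WT libraries, while all genes stay at 0.00.

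The size of the count depended on single libraries, while the direction did not. Without WT 1, 16 large and 9 small subunit genes rose (7.93% of all genes), without WT 2 12 and 10 (10.1%), without KO 2 16 and 11 (10.9%) and without KO 3 13 and 11 (10.1%). Without WT 3 the numbers were 19 and 13 (15.4%) and without KO 1 26 and 20 (21.3%). Without WT 2 and KO 2 together they were 4 and 4 (5.49% of all genes), and the medians 0.21 and 0.23. No member fell in any of these fits, and 72 to 74 of 77 members stayed above 0. Of the 45 members that rose, 18 kept their call without any 1 library, 8 of the small and 10 of the large subunit.

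Among small subunit genes, Mrps28 had the largest rise of all members. It encodes a small subunit protein related to a bacterial ribosomal protein (ENSMUSG00000040269, GRCm38 chromosome 3, 8802146 to 8923918, minus strand). Its levels were 6.51, 5.81 and 5.28 CPM in WT 1 to 3 and 10.6, 12.5 and 10.3 CPM in KO 1 to 3. Every KO library lay above every WT library, and the mean went from 5.87 ± 0.619 to 11.1 ± 1.22 CPM. This is a log2 fold change of 0.92 (SE 0.13; adjusted p = 0.00556 by the quasi-likelihood test of edgeR with Benjamini-Hochberg adjustment), and the call held without any 1 library. Variants in its human counterpart are known to cause a combined oxidative phosphorylation deficiency, as are variants in the counterparts of Mrps22, Mrps16, Mrps14, Mrps34 and other members.

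Mrps22, whose protein has no bacterial counterpart (ENSMUSG00000032459, GRCm38 chromosome 9, 98588730 to 98601660, minus strand), stood at 9.78, 8.76 and 10.1 CPM in WT 1 to 3 and 13.2, 15.5 and 13.6 CPM in KO 1 to 3. The genotypes did not overlap, and the log2 fold change was 0.56 (SE 0.10). Mrps27 encodes a pentatricopeptide repeat protein (ENSMUSG00000041632, GRCm38 chromosome 13, 99344786 to 99415562, plus strand). Its values were 14.9, 14.7 and 16.1 CPM in WT 1 to 3 and 20.7, 25.3 and 20.7 CPM in KO 1 to 3, again without overlap and with KO 2 highest. It rose by a log2 fold change of 0.55 (SE 0.10), and 24.2% of its exon bases are shared with a transcript of the opposite strand. Both calls held without any 1 library. Mrps6, a bacterial-type protein of the small subunit (ENSMUSG00000039680, GRCm38 chromosome 16, 92058270 to 92112227, plus strand), had 10.7, 9.43 and 12.8 CPM in WT 1 to 3 and 14.0, 19.2 and 16.4 CPM in KO 1 to 3, without overlap between genotypes but with uneven values within each. Its log2 fold change of 0.60 (SE 0.15) needed WT 1, WT 2, KO 2 and KO 3 for its call, and 19.9% of its exon bases lie in other genes of the same strand.

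The S18 family has 3 genes in mammals, all related to 1 bacterial protein and placed at different sites of the ribosome: Mrps18b and Mrps18c in the small subunit and Mrps18a in the large. Mrps18b (ENSMUSG00000024436, GRCm38 chromosome 17, 35910379 to 35916389, minus strand) stood at 13.6, 14.2 and 13.8 CPM in WT 1 to 3 and 19.4, 23.0 and 19.6 CPM in KO 1 to 3. It went from 13.9 ± 0.306 to 20.6 ± 2.02 CPM (log2 fold change 0.57, SE 0.09), with no overlap, and shares 30.5% of its exon bases with an antisense transcript. Mrps18a went from 28.0 ± 0.867 to 35.4 ± 2.81 CPM (log2 fold change 0.34, SE 0.07), a call that needed WT 1 and KO 3. Mrps18c had 30.5, 28.2 and 25 CPM in WT 1 to 3 and 27.1, 32.4 and 32.1 CPM in KO 1 to 3, so that KO 1 lay within the WT range. Its log2 fold change was 0.13 (SE 0.10) and was not called. Thus 2 of the 3 paralogs rose; the difference between the paralogs was not tested.

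Groups by place in the ribosome, here and below, were chosen after values were seen, so the counts within them depend on that choice. Over all members 45 of 77 rose, and over all genes tested 18.5%. Around the path of the messenger RNA, 4 of 5 genes rose: Mrps12, whose protein lies at the decoding site, Mrps5 at the entry of the channel, and Mrps7 and Mrps11. The changes were small, with log2 fold changes of 0.23, 0.27, 0.24 and 0.39. Mrps11 had narrow groups, at 12.9, 12 and 12.5 CPM in WT 1 to 3 and 16.5, 16.6 and 16.1 CPM in KO 1 to 3, and kept its call without any 1 library. Mrps5 needed WT 2 for its call, Mrps7 needed WT 1, WT 2, KO 2 and KO 3, and Mrps12 every library but KO 1. Mrps24, the fifth, was at 23.7 ± 0.402 CPM in WT and 27.2 ± 1.63 CPM in KO and just missed the threshold (log2 fold change 0.20, edgeR adjusted p = 0.0524). Mrps14, Mrps25 and Mrps26, other small subunit proteins, rose by log2 fold changes of 0.41, 0.44 and 0.42 and kept their calls without any 1 library, although 69.8% of the exon bases of Mrps25 overlap the opposite gene Nr2c2. Mrps16 rose from 11.3 ± 0.782 to 14.8 ± 2.27 CPM, a call that needed WT 1, WT 2, WT 3, KO 1 and KO 2. Mrps23 showed a small but even difference, at 34.7, 34.8 and 34.6 CPM in WT 1 to 3 and 38.9, 40.0 and 39.1 CPM in KO 1 to 3. Its log2 fold change was 0.18 (SE 0.05), and the call needed every library but KO 1 and was not made in DESeq2, with no filter on low counts and with limma on the authors' normalized values.

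Of 12 members whose human counterparts are known disease genes of mitochondrial translation, 10 rose: Mrps7, Mrps14, Mrps16, Mrps22, Mrps23, Mrps25, Mrps28, Mrps34, Mrpl12 and Mrpl44. Over all members 45 of 77 rose, and over all genes tested 18.5%. These 12 were chosen after values were seen and may leave out other disease genes among the members. Whether disease genes differ from the other members was not tested. Mrps34 went from 31.5 ± 1.55 to 37.9 ± 0.885 CPM, a call that needed WT 1, and 77.8% of its exon bases lie in neighbouring genes. Mrpl44, a large subunit protein with an RNase III-like fold, went from 22.8 ± 1.51 to 27.9 ± 1.29 CPM, a call that needed WT 2, WT 3, KO 2 and KO 3. Mrps2 and Mrpl3 were not called, at 24.9 ± 0.652 CPM in WT and 27.8 ± 1.37 CPM in KO and at 34.4 ± 1.09 CPM in WT and 35.2 ± 1.88 CPM in KO.

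**Figure D3:**
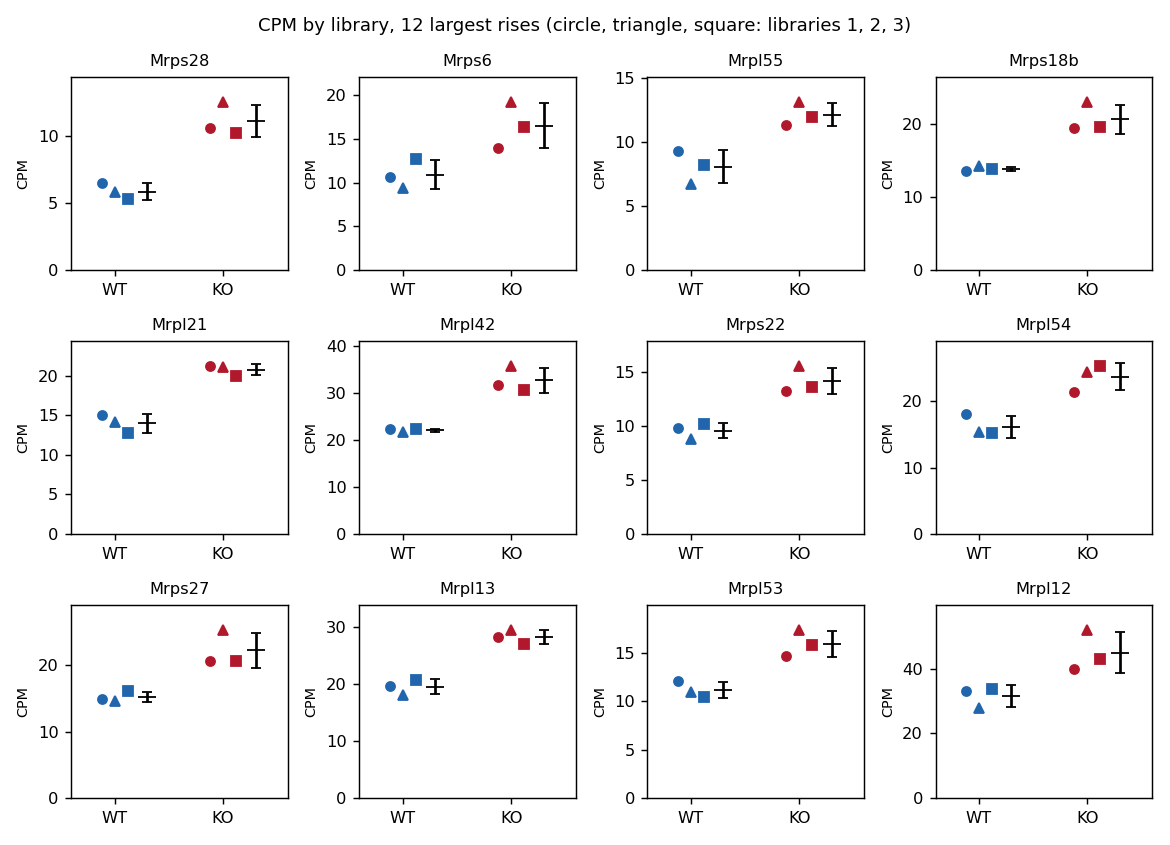
CPM in each library (y axis, starting at 0) for the 12 members with the largest rises, with WT in blue and KO in red; circles, triangles and squares are libraries 1, 2 and 3, and the black bar gives the mean ± SD of 3 libraries. In each panel the 3 KO points lie above the 3 WT points, and the triangle of KO 2 is often the highest.

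In the large subunit, all 3 genes of the stalk that recruits translation factors rose. Mrpl12 encodes the protein repeated at its tip (ENSMUSG00000039640, GRCm38 chromosome 11, 120484613 to 120489065, plus strand). Its levels were 33.2, 27.7 and 33.8 CPM in WT 1 to 3 and 39.8, 51.9 and 43.0 CPM in KO 1 to 3, the largest absolute difference among the 12 leading members. The log2 fold change was 0.51 (SE 0.12), with KO 2 highest and WT 1 and WT 2 needed for the call. Mrpl11, at the base of the stalk, had 19.0, 15.8 and 17.9 CPM in WT 1 to 3 and 21.9, 27.0 and 24.3 CPM in KO 1 to 3 and kept its call without any 1 library (log2 fold change 0.47, SE 0.10). Mrpl10, to which Mrpl12 binds, went from 25.7 ± 1.00 to 29.6 ± 1.63 CPM (log2 fold change 0.21), a call that needed every library but KO 1.

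Of the genes for proteins that reach towards the peptidyl transferase centre, where peptide bonds form, 2 of 4 rose. Mrpl27 went from 25 ± 1.89 to 30.8 ± 0.720 CPM, a call that needed WT 2 and KO 3, and Mrpl16 from 17.1 ± 0.850 to 21.4 ± 1.17 CPM, a call that needed WT 2, KO 2 and KO 3. Mrpl2 was at 28.9, 27.7 and 26.4 CPM in WT 1 to 3 and 28.8, 32.0 and 36.0 CPM in KO 1 to 3 and Mrpl3 at 35.4, 34.5 and 33.3 CPM in WT 1 to 3 and 36.5, 36.1 and 33.1 CPM in KO 1 to 3, each with overlapping genotypes and no call. Of 6 genes of the central protuberance, the crown of the large subunit, which in mammals contains a transfer RNA as a structural part, 4 rose. Mrpl18, descended from the bacterial protein that binds the small RNA of the large subunit, went from 30.3 ± 0.760 to 39.1 ± 2.94 CPM (a log2 fold change of 0.37 with SE 0.07) and kept its call without any 1 library. Mrpl38 and Mrpl40 rose by log2 fold changes of 0.42 and 0.36; Mrpl38 needed WT 1, WT 2 and KO 3 for its call, and Mrpl40 needed WT 2, WT 3, KO 2 and KO 3. Mrpl58, a peptidyl-tRNA hydrolase that was built into the ribosome, went from 19.6 ± 1.34 to 23.1 ± 0.699 CPM, a call that needed every library but KO 1. Mrpl46 (log2 fold change 0.23) and Mrpl48 (0.02) were not called.

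Around the exit tunnel, through which the new protein leaves, edgeR called 0 of the 5 genes chosen. By the same test, 4 of them were higher at an unadjusted p under 0.05. In the whole large subunit 26 of 48 genes rose, against 18.5% of all genes. The count of 0 depends on which genes are assigned to this site. DESeq2 and limma-voom called 0, limma-voom with sample quality weights 2, and edgeR with upper quartile scaling 3, all higher. Mrpl24 was at 55.8, 52.6 and 54.0 CPM in WT 1 to 3 and 54.2, 53.4 and 51.8 CPM in KO 1 to 3, with overlapping genotypes and a log2 fold change of -0.03 (SE 0.05). Mrpl45, which anchors the ribosome to the inner membrane, was at 27.9, 27.2 and 29.1 CPM in WT 1 to 3 and 31.0, 31.0 and 31.4 CPM in KO 1 to 3. Its KO libraries all lay above WT by a small margin, but the test did not call it (log2 fold change 0.15, edgeR adjusted p = 0.0707). Mrpl22, Mrpl23 and Mrpl47 had log2 fold changes of 0.29, 0.29 and 0.25, with KO above WT in every library and edgeR adjusted p of 0.0605, 0.0955 and 0.0836. Thus 4 of these 5 genes were on the same side as the other members, and 3 of them had a log2 fold change of about the median of the subunit.

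The other leading large subunit genes encode bacterial-type proteins (Mrpl13 and Mrpl21) or proteins found only in mitochondrial ribosomes (Mrpl42, Mrpl53 and Mrpl54), beside Mrpl55. Mrpl42 (ENSMUSG00000062981, GRCm38 chromosome 10, 95480805 to 95501940, minus strand) stood at 22.2, 21.7 and 22.2 CPM in WT 1 to 3 and 31.6, 35.6 and 30.7 CPM in KO 1 to 3. Its WT libraries lay within 1 CPM of each other and all KO libraries well above them (log2 fold change 0.57, SE 0.07, edgeR adjusted p = 0.00506). Mrpl21 (ENSMUSG00000024829, GRCm38 chromosome 19, 3282901 to 3292837, plus strand) had 15.1, 14.1 and 12.8 CPM in WT 1 to 3 and 21.2, 21.1 and 20.0 CPM in KO 1 to 3, with the ETS letters at its start site shown above. It rose by a log2 fold change of 0.57 (SE 0.08), without overlap. Mrpl13 (ENSMUSG00000022370, GRCm38 chromosome 15, 55534094 to 55557748, minus strand) had 19.7, 18.1 and 20.8 CPM in WT 1 to 3 and 28.2, 29.5 and 27.1 CPM in KO 1 to 3, likewise without overlap (log2 fold change 0.53, SE 0.07). Mrpl54 (ENSMUSG00000034932, GRCm38 chromosome 10, 81264713 to 81266934, minus strand) had 18.1, 15.3 and 15.1 CPM in WT 1 to 3 and 21.4, 24.4 and 25.3 CPM in KO 1 to 3 and a log2 fold change of 0.55 (SE 0.10). These 4 kept their calls without any 1 library. Mrpl55 (ENSMUSG00000036860, GRCm38 chromosome 11, 59202486 to 59206134, plus strand) had 9.32, 6.72 and 8.24 CPM in WT 1 to 3 and 11.3, 13.1 and 12 CPM in KO 1 to 3 (log2 fold change 0.58, SE 0.13) and needed KO 3 for its call. Mrpl53 (ENSMUSG00000030037, GRCm38 chromosome 6, 83109040 to 83109939, plus strand) had 12.1, 11 and 10.4 CPM in WT 1 to 3 and 14.7, 17.4 and 15.8 CPM in KO 1 to 3 (log2 fold change 0.51, SE 0.10) and kept its call without any 1 library. As 88.0% of its exon bases also belong to the predicted gene Gm42688 on the same strand, its counts may be split between them.

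Among the members that were not called, some lay close to 0. Mrpl9, a bacterial-type large subunit protein, was at 44.0, 42.4 and 40.7 CPM in WT 1 to 3 and 39.4, 39.8 and 39.3 CPM in KO 1 to 3, all KO libraries being slightly lower (log2 fold change -0.10, SE 0.05, edgeR adjusted p = 0.169). Mrps9 was at 29.3, 26.6 and 26.9 CPM in WT 1 to 3 and 25.5, 27.1 and 26.5 CPM in KO 1 to 3, with overlapping genotypes (log2 fold change -0.07, SE 0.06). Together with Mrpl24 these were the 3 members below 0, and none was called. A further group of abundant large subunit genes also stayed near 0, among them Mrpl43 (log2 fold change 0.07), Mrpl36 (0.07) and Mrpl14 (0.08).

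Levels between members were compared per length, as mean CPM per kb of merged exon over the 6 libraries. They ran from 1.18 for Mrpl23 to 56.0 for Mrps21, with a median of 9.85. The next highest were Mrpl34 (33.8), Mrpl28 (32.6), Mrpl27 (28.3) and Mrps18c (27.2), and the lowest after Mrpl23 were Mrps10 (1.52), Mrps35 (1.74), Mrpl47 (2.28), Mrps22 (2.97) and Mrpl13 (3.01). Merged exons include rare long transcript forms, so genes with such forms appear lower. Mrps21, the most abundant per length, was at 41.7, 40.3 and 38.1 CPM in WT 1 to 3 and 42.8, 42.6 and 42.8 CPM in KO 1 to 3 with a log2 fold change of 0.09 (SE 0.06) and no call, although no KO library overlapped WT. Level per length and change were hardly related across the 77 members (Spearman rho -0.10, a description across genes that share the same 6 libraries). For CPM without length the value was -0.32, the more abundant transcripts having the smaller log2 fold changes.

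**Figure D4:**
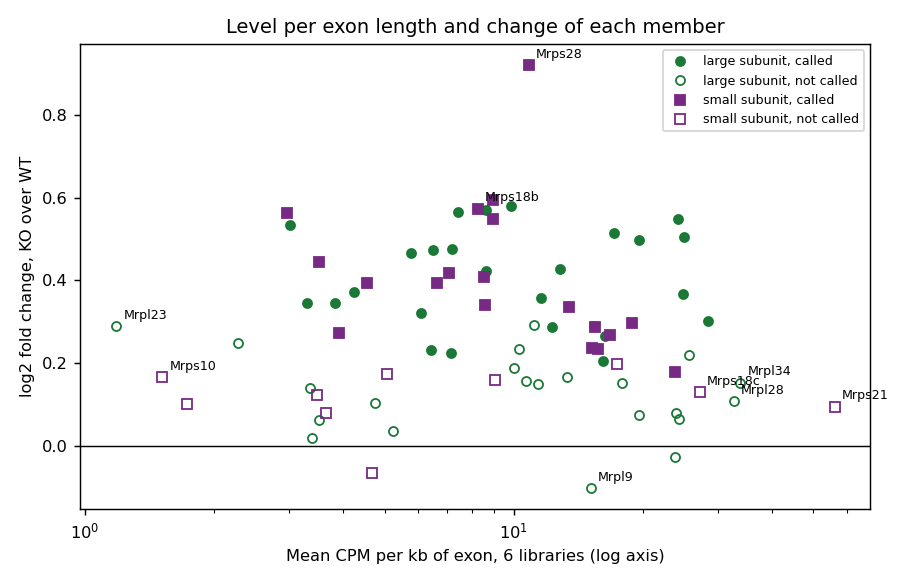
Mean CPM per kb of exon over 6 libraries (x axis, log scale) against the log2 fold change of KO over WT (y axis) for each member; circles are large and squares small subunit genes, filled where called. Called genes occur over most of the range of levels, and Mrps21 at 56.0 CPM per kb and Mrpl34 and Mrpl28 to its left are among those not called.

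Some symbols do not follow the place of the protein in the ribosome. Mrps18a and Mrps30 belong to the mammalian large subunit, and Mrps36 encodes a subunit of the oxoglutarate dehydrogenase complex. By place, 27 of 50 large subunit genes and 17 of 26 small subunit genes rose, with medians of 0.28 and 0.27. Mrps36 itself rose from 15.2 ± 0.466 to 19.1 ± 1.89 CPM, a call that needed every library but KO 1, and Mrps30 was not called at 23.7 ± 0.849 CPM in WT and 25.1 ± 1.05 CPM in KO. Members classed as specific to mitochondria rose in 22 of 31 cases, with a median of 0.29. Those classed as direct counterparts of a bacterial protein rose in 22 of 45, with a median of 0.24. The share was 45 of 77 over all members and 18.5% over all genes tested. The difference between the 2 classes was not tested. The additional S18 copies Mrps18a and Mrps18b, which both rose, were classed as specific to mitochondria although they are related to a bacterial protein, and Mrps18c and Mrpl55 as bacterial counterparts. The members lie on 17 chromosomes, with 11 on chromosome 11 (8 rose), 8 on chromosome 17 (4 rose) and 7 on chromosome 6 (5 rose).

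Exons of 18 members share 10% or more of their bases with another annotated gene. Libraries were made with a directional kit, but the strand setting of the counting is not given in the sources used here. Of these 18, 10 rose. Among the 59 others, 22 of 38 large and 13 of 21 small subunit genes rose, with medians of 0.29 and 0.27. Many members are transcribed head to head with a neighbour: 33 of 77 (42.9%) have the start of a protein-coding gene of the opposite strand within 1000 bases upstream or overlapping, against 17.1% of the 11599 protein-coding genes tested. Of these 33 members, 21 rose, against 45 of all 77 members. Of their 28 neighbours that were tested and are no members, 5 rose and 3 fell, with a median log2 fold change of 0.10. Over all genes tested, 18.5% rose and 16.8% fell, so the neighbours were not called more often than genes in general. Mrpl46 and Mrps11 form such a pair with each other, with start sites 412 bases apart. Mrpl54 and its neighbour Apba3, 26 bases apart, had log2 fold changes of 0.55 and 0.11, of which the member was called. Mrps18b and Ppp1r10, 45 bases apart, had 0.57 and -0.13, again with a call for the member. In the opposite case, Mrpl36 was not called at 0.07 while Ndufs6, a subunit of respiratory complex I with its start 29 bases away, rose by 0.42.

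The mitochondrial ribosome also holds proteins whose genes carry other names, and these followed the same direction. Of 5 such genes 4 rose, against 18.5% of all genes tested, and the median of the 5 log2 fold changes was 0.38. Chchd1 had 20.5, 19.8 and 17.9 CPM in WT 1 to 3 and 24.2, 29.0 and 27.6 CPM in KO 1 to 3, Ptcd3, a pentatricopeptide repeat protein, went from 19.0 ± 0.396 to 26.4 ± 1.94 CPM, Aurkaip1 from 41.1 ± 2.37 to 53.5 ± 1.97 CPM, and Dap3, a GTP-binding protein first described in cell death, from 22.9 ± 0.201 to 29.5 ± 1.54 CPM. All 4 calls held without any 1 library. The fifth, Gadd45gip1, was at 15.9 ± 1.07 CPM in WT and 19.0 ± 1.84 CPM in KO with a log2 fold change of 0.26 and was not called (edgeR adjusted p = 0.0677).

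Genes that serve the mitochondrial ribosome without being part of it were called in both directions, with more of them above 0 than below. Of 30 genes for the assembly of the ribosome and the modification of its RNA, 5 rose (16.7%) and 2 fell (6.67%), with a median of 0.11. Both shares were below the 18.5% and 16.8% of all genes, and 21 of the 30 lay above 0, against 50.2% of all genes. Rcc1l, an assembly factor, rose from 11.3 ± 0.586 to 16.2 ± 0.793 CPM and kept its call without any 1 library, and Mrm3, a methyltransferase of the large ribosomal RNA, rose from 3.78 ± 0.203 to 5.77 ± 1.14 CPM. Ndufab1, the mitochondrial acyl carrier protein, and Fastkd2, an RNA-binding protein of ribosome assembly, rose by log2 fold changes of 0.32 and 0.31. Mrm3 needed every library but KO 1 for its call, Ndufab1 needed WT 2, WT 3, KO 2 and KO 3, and Fastkd2 WT 1, WT 2, KO 2 and KO 3. Leaving out WT 1 or WT 3 reduced the list's rises to 2, and leaving out WT 2, KO 2 or KO 3 to 1. Its falls numbered 3 with KO 1 left out and 0 with any other library left out. Of 15 measured genes listed as translation factors 6 rose (40.0%) and 1 fell (6.67%), with a median of 0.15 and 11 of the 15 above 0. This list was broad, as it held the RNA-binding proteins Slirp and Lrpprc, which both rose, and the insertase Oxa1l, its only fall. Tufm, the elongation factor that brings transfer RNA to the ribosome, had 46.3, 43.4 and 45.9 CPM in WT 1 to 3 and 59.1, 63.6 and 63.8 CPM in KO 1 to 3, with a wide gap between genotypes. Gfm1, the elongation factor of translocation, went from 33.5 ± 2.14 to 44.1 ± 3.38 CPM, Gfm2, the recycling factor, from 24.7 ± 1.05 to 30.6 ± 1.39 CPM, and Tsfm, the exchange factor of Tufm, from 9.64 ± 0.676 to 13.5 ± 1.62 CPM. Tufm, Gfm1 and Gfm2 kept their calls without any 1 library, while Tsfm needed WT 1, WT 2, KO 2 and KO 3 for its call. The 6 rises became 3 without WT 1, WT 2, KO 2 or KO 3. Oxa1l, the inner membrane insertase to which the ribosome docks, fell by 0.32 on the log2 scale (SE 0.07), with 55.1 ± 3.90 CPM in WT and 44.1 ± 1.53 CPM in KO, a call that needed WT 1.

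**Figure D5:**
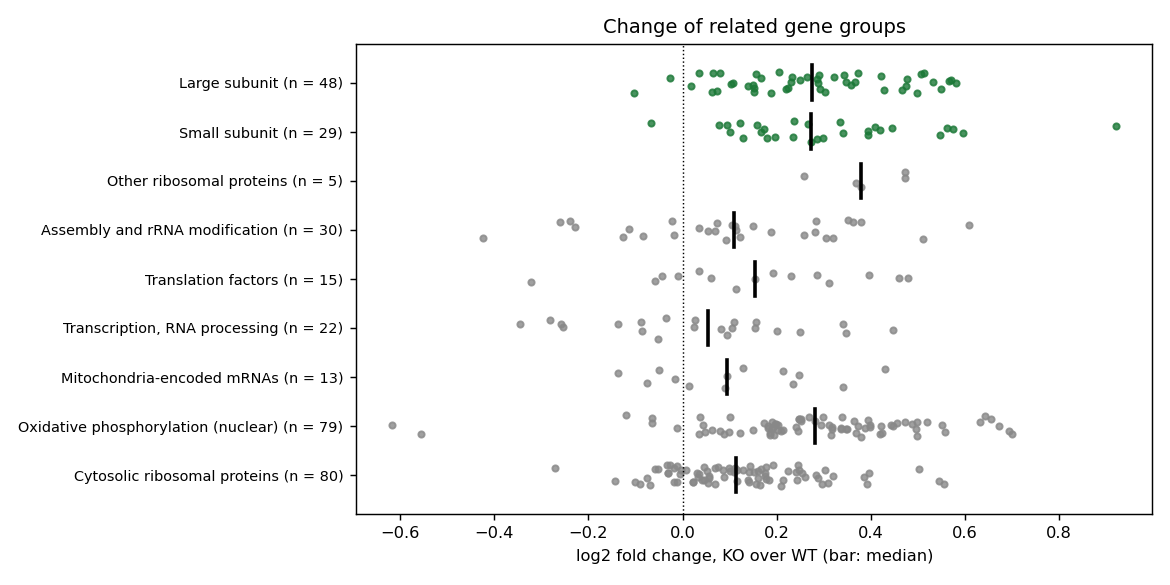
Log2 fold change of KO over WT (x axis) for each tested gene of the large and small subunits (green) and of related gene groups (grey), with the median as a black bar. The medians are 0.28 and 0.27 for the subunits, 0.28 for the nuclear genes of oxidative phosphorylation and 0.11 for the cytosolic ribosomal proteins.

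The products of the mitochondrial genome did not move as a block. A list of 22 genes for mitochondrial transcription and RNA processing also held Polg, Polg2, Twnk and Ssbp1, which serve mitochondrial DNA replication. Of these 22, 5 rose (22.7%) and 2 fell (9.09%), with a median of 0.05. Both falls, Polg and Ssbp1, were of replication genes. The share rising was near the 18.5% of all genes, and the share falling stood against 16.8%. Hsd17b10, a subunit of mitochondrial RNase P, and Fastk, an RNA-binding protein, rose by log2 fold changes of 0.45 and 0.35 and kept their calls without any 1 library, whereas Ssbp1, which binds single-stranded mitochondrial DNA, fell by 0.26 on the log2 scale, a call that needed WT 1, WT 2, KO 2 and KO 3. The list's rises numbered 2 with WT 1, WT 2, WT 3 or KO 2 left out and 3 with KO 3 left out, and its falls 1 without WT 3 and 0 without WT 1, WT 2, KO 2 or KO 3. Of 13 mitochondria-encoded mRNAs 3 rose (23.1%), mt-Nd3, mt-Nd1 and mt-Co3, with log2 fold changes of 0.43, 0.34 and 0.25. The 3 rises became 0 without WT 1 or WT 2, 1 without KO 2 or KO 3 and 2 without KO 1. Over all 13 the sum was 20488 ± 1115 CPM in WT and 20866 ± 1437 CPM in KO, with overlapping libraries. The RNA of the small ribosomal subunit, mt-Rnr1, was lower in KO, at 379, 411 and 397 CPM in WT 1 to 3 and 328, 242 and 255 CPM in KO 1 to 3 (log2 fold change -0.53, SE 0.12, edgeR adjusted p = 0.0145), a call that needed WT 2 and KO 3. That of the large subunit, mt-Rnr2, was at 1105, 1229 and 1251 CPM in WT 1 to 3 and 1197, 938 and 1203 CPM in KO 1 to 3 and was not called. How far such RNAs were removed or kept in library preparation is not given in the sources used here. Their counts may therefore not follow their amounts.

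A list of 13 tested genes held regulators of nuclear genes for mitochondria and also the mitochondrial proteases Clpp and Lonp1. Of these 13, 2 rose and 2 fell (15.4% each), shares near the 18.5% and 16.8% of all genes. The rises were Myc and Clpp, so that Myc was the only regulator that rose. Myc, a transcription factor of growth and ribosome production, had 25.1, 24.3 and 28.9 CPM in WT 1 to 3 and 36.4, 46.9 and 44.5 CPM in KO 1 to 3 (log2 fold change 0.71, SE 0.11), and kept its call without any 1 library. Clpp, a matrix protease, went from 12.1 ± 0.333 to 16.2 ± 1.56 CPM, a call that needed WT 1. Yy1 fell from 139.7 ± 1.44 to 119.6 ± 3.90 CPM, a call that needed WT 1 and WT 2, and Gabpb2, a subunit of the ETS factor GABP, from 89.6 ± 1.89 to 75.9 ± 3.22 CPM, a call that needed WT 2 and KO 3. Its DNA-binding partner Gabpa was at 63.2 ± 1.55 CPM in WT and 54.9 ± 4.46 CPM in KO and Nrf1 at 33.3 ± 2.85 CPM in WT and 28.2 ± 1.55 CPM in KO, with KO libraries below WT libraries in both and edgeR adjusted p of 0.0551 and 0.0517, which miss the threshold. The list's 2 rises became 1 without WT 1 and 4 without KO 1, and its 2 falls 1 without WT 1 or KO 3, 0 without WT 2 and 4 without KO 1.

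The nuclear genes of the respiratory chain lay close to the members, while the median of the cytosolic ribosome was lower. Of 79 tested nuclear genes of oxidative phosphorylation, whose products join those made by mitochondrial ribosomes, 49 rose and 1 fell, with a median log2 fold change of 0.28, the same as for the large subunit. Their median deviations were 0.23, 0.37 and 0.26 in KO 1 to 3, following the order of the members. Leaving out WT 2 reduced the 49 rises to 30, and leaving out WT 2 and KO 2 together to 16. Of 80 cytosolic ribosomal protein genes, by contrast, 12 rose and 1 fell, a share of 15.0% rising that does not exceed the 18.5% of all genes. This family was taken by symbol and includes Rps19bp1, Rpl7l1 and Rpl22l1. Its median was 0.11, with deviations of 0.13, 0.17 and 0.04 in KO 1 to 3 and 0.10 in WT 1. Most of the family, 62 of 80 genes (77.5%), still lay above 0, against 50.2% of all genes. The 12 rises became 8 without WT 1, 4 without WT 2 or WT 3, 5 without KO 2 and 6 without KO 3, and the fall needed WT 1, WT 2 and KO 2. The difference between mitochondrial and cytosolic ribosomal genes was not itself tested.

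Genes of cell division moved with the members and by more. Of 18 proliferation genes 9 rose, against 18.5% of all genes tested. All 18 lay above 0, against 50.2% of all genes, at a median of 1.11 on the log2 scale. They summed to 705, 562 and 983 CPM in WT 1 to 3 and 1242, 1941 and 1427 CPM in KO 1 to 3, so that WT 2 was the lowest and KO 2 the highest library, as for 38 and 52 of the 77 members. Pcna, the sliding clamp of DNA replication, went from 243 ± 38.4 to 545 ± 113 CPM. The 9 rises became 1 without WT 1, 5 without KO 2 or KO 3 and 18 without WT 3. Within KO, the division sum and both subunit sums ran from KO 2 through KO 3 to KO 1, highest to lowest. Within WT, WT 3 had the highest division sum, while its subunit sums lay between those of WT 1 and WT 2. The part of division genes in the rise of the mitochondrial ribosomal genes was not tested.

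Markers of other cell types were examined by their sums. The erythroid gene Alas2 and the stromal genes Dcn and Lum were at 0 counts in all libraries. The 7 erythroid markers summed to 0.0997 to 0.281 CPM and the 7 stromal markers to 2.25 to 4.83 CPM over the 6 libraries. The 11 neutrophil markers summed to 66.5 to 134 CPM in WT and 68.7 to 144 CPM in KO, with WT 2, KO 1 and KO 3 highest. The 7 megakaryocyte markers summed to 168 to 243 CPM in WT and 178 to 282 CPM in KO, nearly all of it Pf4, and 4 of the 5 tested rose, at low levels. The 7 B cell markers summed to 106 to 131 CPM in WT and 51.5 to 78.3 CPM in KO, mostly Ighm, which fell, while Igkc rose at a low level. The 8 T and NK cell markers summed to 13.4 to 18.5 CPM in WT and 11.8 to 17.9 CPM in KO, and the 6 dendritic cell markers to 1.76 to 2.86 CPM over the 6 libraries. The 6 mast cell and basophil markers summed to 0.241 to 0.402 CPM in WT and 1.05 to 3.84 CPM in KO, with KO 2 highest. The part of these cells in the result was not tested. Mitochondria-encoded genes took 2.09 to 2.34% of counts in WT and 2.13 to 2.43% in KO.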

How the data were processed

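Whole RNA of bone marrow-derived macrophages was sequenced from 3 WT and 3 KO libraries, prepared with a directional kit per the labels' protocols. The authors deposited raw counts per gene and a normalized signal per gene, each for the 6 libraries. The submitters' processing notes name DRAGEN, DESeq2 and mm10. Not given in the sources used here: the annotation, the strand setting and the rule for reads of overlapping genes. All 42256 gene identifiers were matched to symbols and exons of the GENCODE M21 annotation of GRCm38. Of the 16 symbols in the list of translation factors, 15 were found.

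Counts were tested with edgeR 4.0.16 (R 4.3.3): filterByExpr with a minimum count of 10, TMM scaling, a robust quasi-likelihood fit of KO against WT without covariates, and Benjamini-Hochberg adjustment over 12862 genes at 0.05. The fit was tested on simulated data of 12721 genes, with 63 changed 1.2-fold, 67 changed 1.5-fold and 66 changed 2-fold. It called 0%, 34.3% and 74.2% of these, and 6 of its 78 calls were of unchanged genes. Far fewer genes were changed there than the 4532 of 12862 called in the data, so these rates may not carry over. Alternatives were DESeq2 1.42.0, limma-voom (limma 3.58.1), the same with quality weights per sample, scaling by RLE, upper quartile or totals, no filter or a minimum count of 50, a limma fit of log2(the authors' deposited signal + 1), and fits without 1 of the 6 libraries. Pairs of libraries of 1 genotype differed by more than sampling noise (chi-square per degree of freedom 12.6 to 52.6), so no pair looked like copies of 1 library. Whether the libraries are separate animals is not settled by this. Members had 137 to 2083 counts per library. The biological coefficient of variation was 0.121, a common value over all genes tested and not that of the members. Whether depth or the spread between libraries limits the precision for the members more was not examined.

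The members and gene lists were chosen with earlier results of these data known. Members named with values are the 12 largest rises, the 3 highest and the 3 lowest of each subunit per length, the S18 paralogs and those of a sign opposite to most; the fixed lists give up to 4 called genes. Role groups, disease genes, origin classes, promoter motifs and neighbours, and the other genes named in them, were chosen after values were seen.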

Additional observations from a re-analysis of the deposited data

How the results depend on the processing

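No paired analysis was possible because the labels give no replicate numbers. The rises of the members, 26 large and 19 small subunit genes, stayed within 1.5 times of these counts in every alternative test, scaling and filter: DESeq2 called 22 and 17, limma on the authors' normalized values 20 and 15, and upper quartile scaling 30 and 22. No member fell in any alternative, and none of the 448 values of named members under an alternative changed sign while called. Leaving out 1 library gave 12 to 26 large and 9 to 20 small subunit genes, and leaving out WT 2 and KO 2 together, chosen after seeing the data, 4 and 4. Over all genes, leaving out 1 library gave 1037 to 2791 higher and 942 to 2665 lower genes, and leaving out both 710 and 668, against 2375 and 2157; fewer libraries leave fewer degrees of freedom. Upper quartile scaling, which moved the median of all genes to 0.06, gave 2933 higher and 1621 lower. The fixed lists, with 34 rises and 8 falls in all, had 13 to 35 rises and 1 to 11 falls without 1 library, and 8 and 1 without both. Their rises were 52 with limma-voom and sample quality weights and 22 with no filter on low counts. Their falls were 15 with these weights, 3 with upper quartile scaling and 5 with limma on the authors' normalized values; the cause was not tested. Depth limits the test of the deleted gene, at 4 to 11 counts, and of markers of other cells.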
